A study of Mus musculus with 29 samples.

Results

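The mRNA levels of 10 genes that encode the enzymes writing and erasing methylation of lysine 4 of histone H3 (H3K4) were followed during adipocyte differentiation of 3T3-L1 cells. The genes were chosen by name. The 4 demethylase genes were Kdm5a, Kdm5b, Kdm5c and Kdm1a, and the 6 methyltransferase genes were Kmt2a, Kmt2b, Kmt2c, Kmt2d, Setd1a and Setd1b. All 10 were among the 11959 genes in the count table. Kdm5d was not analysed here.

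3T3-L1 cells are mouse embryonic fibroblasts which become white adipocytes under an adipogenic cocktail. RNA was sequenced from 29 samples in 8 groups, which are every combination of 2 treatments with 4 collection days. Confluent preadipocytes received 10 µM KDM5-C70 (C70) or the vehicle, dimethyl sulfoxide, from day -2 until day 0, when differentiation medium was added. Cells were collected at days 0, 1, 2 and 7, with 3 vehicle and 4 C70 samples at days 0, 1 and 2 and 4 of each at day 7. C70 is a cell-permeable ester that inhibits the KDM5 demethylases, so the vehicle samples are the reference without inhibitor at each day. The samples of days 1, 2 and 7 were collected after the inhibitor had been withdrawn. The labels name every sample an adipocyte, but the adipocyte marker Adipoq averaged 0.283 CPM in vehicle cells at day 0 and 1340 CPM at day 7. CPM is the count per 1000000 counts of the scaled library. All samples come from 1 cell line, and whether replicates were separate cultures is not stated, so the P values below measure the spread between these samples. In bulk RNA, fewer cells of a type and less RNA per cell cannot be told apart.

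Methyl groups on H3K4 mark active promoters and enhancers. KDM5 proteins remove them from the tri- and dimethylated lysine, whereas LSD1, the product of Kdm1a, acts on the mono- and dimethylated lysine with a flavin cofactor. The methyltransferases form 3 pairs of paralogs. SETD1A and SETD1B place much of the trimethylation at promoters, MLL1 and MLL2 (Kmt2a and Kmt2b) act at selected promoters such as those of developmental genes, and MLL3 and MLL4 (Kmt2c and Kmt2d) place monomethylation at enhancers. MLL4 is known to be needed for adipogenesis. These enzymes set the mark that C70 acts on, and the data show how the level of each one's mRNA stood on each day with and without the inhibitor.

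In GENCODE M21 on GRCm38 the demethylase genes are Kdm5a (ENSMUSG00000030180) at chr6:120364124-120444574, Kdm5b (ENSMUSG00000042207) at chr1:134560171-134635285, Kdm5c (ENSMUSG00000025332) at chrX:152233020-152274535 and Kdm1a (ENSMUSG00000036940) at chr4:136550540-136602723. The methyltransferase genes are Kmt2a (ENSMUSG00000002028) at chr9:44803355-44881296, Kmt2b (ENSMUSG00000006307) at chr7:30568858-30588726, Kmt2c (ENSMUSG00000038056) at chr5:25271798-25498783, Kmt2d (ENSMUSG00000048154) at chr15:98831669-98871204, Setd1a (ENSMUSG00000042308) at chr7:127776670-127800122 and Setd1b (ENSMUSG00000038384) at chr5:123142193-123168629. Exons of Kdm5a overlap those of Ccdc77 on the opposite strand by 251 bases, and those of Kmt2a overlap an antisense gene, AC061963.1, by 378 bases. Opposite-strand overlaps were also present for Kmt2c (274 bases, Gm42585) and Setd1a (29 bases, 9430064I24Rik). The use of strand in counting is not given in the sources used here, so reads of such pairs cannot be told apart.

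Total counts per sample ranged from 16320275 to 24037170, and each of the 10 genes had between 445 and 7877 counts in every sample. Day 7 vehicle replicate 1 stood apart from its group in long genes. Over the 2123 genes with more than 8 kb of exon, its median log2 level differed by -0.29 from the other replicates of its group, against -0.10 to 0.14 in the other 28 samples. The 10 genes have 5.18 to 20.3 kb of exon, and in that sample they stood at 52.6% (Kmt2c) to 106% (Kdm1a) of the mean of the other replicates. Kmt2d was at 55.7%, Kmt2a at 58.2%, Setd1b at 60.9% and Kdm5a at 65.5%. Calls at day 7 were therefore also made without this sample, and with a per-sample trend of level on exon length removed, which was added after seeing the data. Since all 29 samples share 1 estimate of the spread, leaving this sample out also changed adjusted P values of other days. The 8 preadipocyte markers fixed (such as Dlk1 and Pdgfra) summed to 3379 to 39553 CPM and the 8 adipocyte markers to 1291 to 29960 CPM over the samples. Of 5 macrophage, 4 endothelial, 4 muscle and 2 brown adipocyte markers, the table held only Cd68 and Des. Cd68 averaged 1.31 CPM in vehicle and 19.1 CPM with C70 at day 0, and its part in the results below was not tested.

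**Figure D1:**
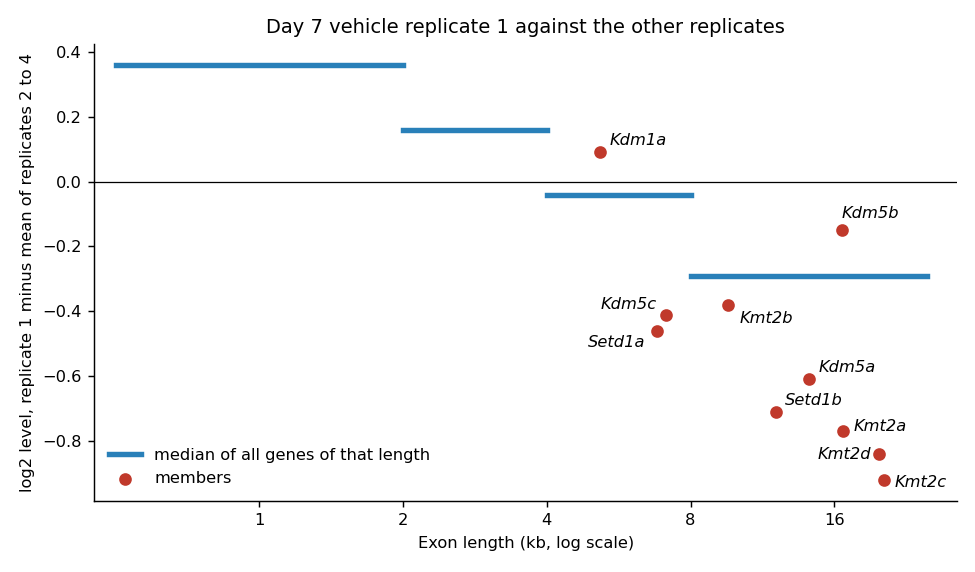
Difference in log2 level between day 7 vehicle replicate 1 and the mean of the other replicates of its group, against exon length on a log scale in kb. Red points are the 10 genes and blue lines the median of all genes in each range of length, which goes from 0.36 under 2 kb to -0.29 over 8 kb.

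A gene was counted as changed when the Benjamini-Hochberg adjusted P value of edgeR's quasi-likelihood test was under 0.05 over all 11959 genes and the log2 change was over 0.32 in size, the study's fold threshold. With C70, 0 of the 10 genes rose and 1 fell at day 0, where 5.88% of all genes rose and 3.08% fell. At day 1, 0 rose and 1 fell, beside 13.6% and 7.78% of all genes. At day 2, 1 rose and 2 fell, beside 16.9% and 13.6% of all genes. At day 7, 1 rose and 0 fell, beside 14.2% and 4.85% of all genes. The median log2 fold change of the 10 genes was 0.05, 0.10, 0.09 and 0.03 on these days, beside a median over all genes of -0.000, -0.006, -0.004 and 0.004. In vehicle cells 3 genes rose and 1 fell from day 0 to day 1, 0 rose and 3 fell from day 1 to day 2, and 1 rose and 4 fell from day 2 to day 7. The shares of all genes were 26.2% and 27.9%, 22.2% and 22%, and 26.6% and 26.7% over the same intervals. From day 0 to day 7, 2 of the 10 rose and 4 fell, where 36.7% of all genes rose and 36.7% fell. The counts describe these 10 genes and are not read as setting them apart from other genes.

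**Figure D2:**
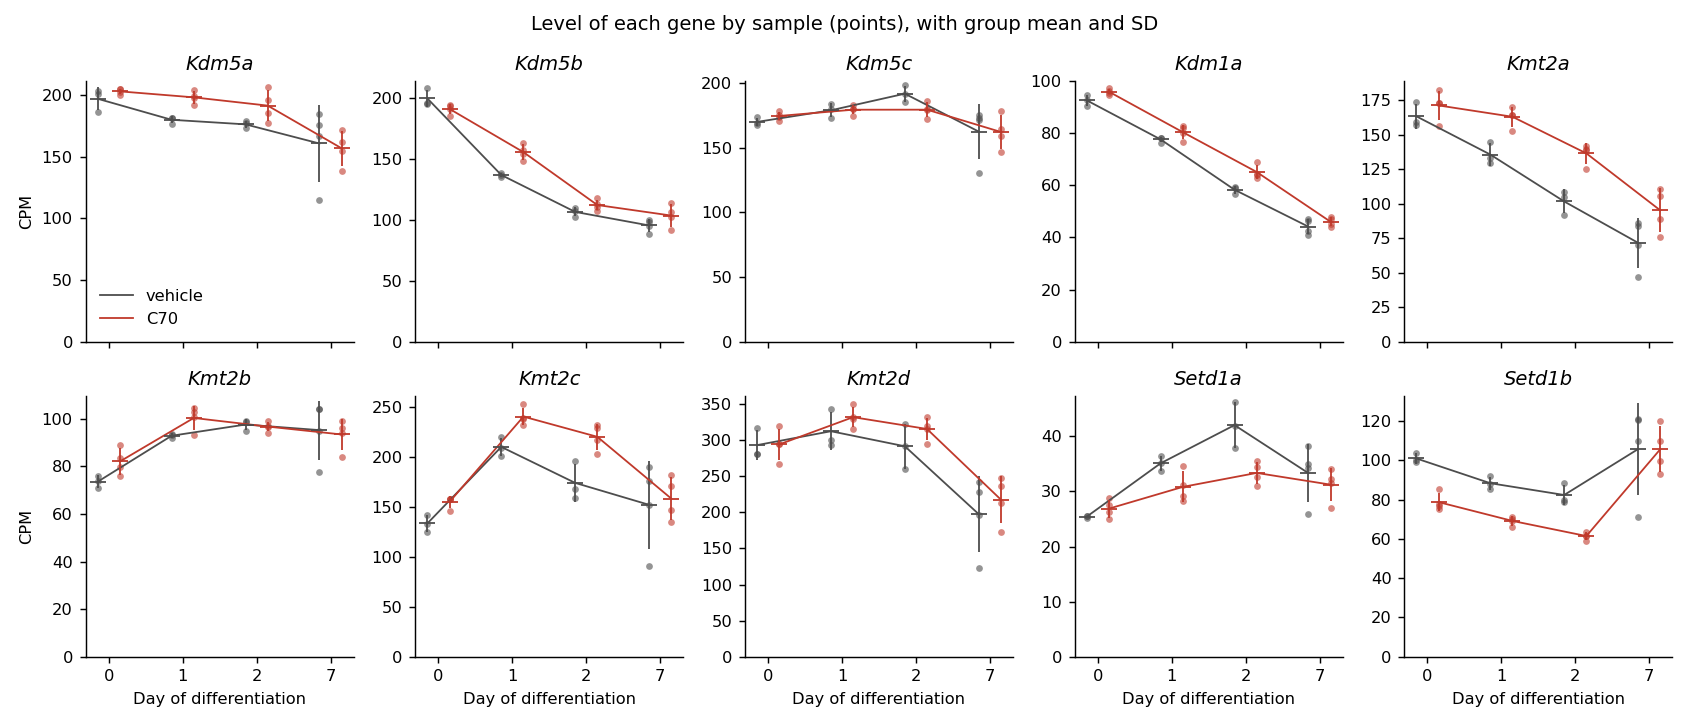
CPM of each of the 10 genes in every sample by day of differentiation, with group means joined by lines and bars of 1 SD. Vehicle is grey and C70 red. Setd1b with C70 lies below vehicle at days 0, 1 and 2 and at the same mean of 106 CPM at day 7.

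The 3 KDM5 genes, whose products are the targets of C70, did not pass both thresholds between C70 and vehicle on any day. Kdm5a was 201.1, 186.3 and 203.3 CPM in vehicle cells at day 0 and 202.4, 204.6, 204.7 and 199.9 CPM with C70. The groups overlapped, with 2 of the C70 samples just above the highest vehicle sample, and the log2 fold change was 0.04 (95% interval -0.14 to 0.23). At days 1, 2 and 7 it was 0.14, 0.12 and -0.04 (adjusted P = 0.234, 0.287 and 0.765). Without day 7 vehicle replicate 1 these values of Kdm5a were 0.14, 0.13 and -0.16 (adjusted P = 0.0150, 0.0226 and 0.00897), and with the length trend removed 0.08, 0.07 and -0.12 (adjusted P = 0.135, 0.200 and 0.0159), all still under the fold threshold.

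Kdm5b encodes the KDM5 demethylase best known from proliferating and tumour cells. At day 1 its level was 134.9, 138.7 and 137.0 CPM in vehicle and 148.0, 163.2, 153.9 and 157.3 CPM with C70. Every C70 sample was above every vehicle sample, but the log2 fold change of 0.19 ± 0.0527 (SE; adjusted P = 0.00547) was below the fold threshold. At day 0 the groups were also apart, in the other direction, at 195.0 to 208.0 CPM in vehicle and 185.5 to 194.6 CPM with C70 (log2 fold change -0.06, adjusted P = 0.455). The C70 effect on Kdm5b was 0.25 higher on the log2 scale at day 1 than at day 0 (95% interval 0.10 to 0.40, adjusted P = 0.0160), a difference that was again under the fold threshold. With the length trend removed this difference was 0.19 (adjusted P = 0.0638) and the day 1 value 0.12 (adjusted P = 0.0789). At days 2 and 7 the log2 fold changes were 0.07 and 0.12 (adjusted P = 0.256 and 0.0593), and with the length trend removed 0.02 and 0.00 (adjusted P = 0.808 and 0.977). Without day 7 vehicle replicate 1 the day 7 value of Kdm5b was 0.09 (adjusted P = 0.143).

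Kdm5c, an X-linked demethylase gene, did not pass the test on any day. Group means of C70 and vehicle were 174 and 170 CPM at day 0 and 179 and 192 CPM at day 2, and were equal at 179 CPM on day 1 and 162 CPM on day 7. Without day 7 vehicle replicate 1 the vehicle mean at day 7 was 173 CPM. The day 7 log2 fold change was then -0.09 (adjusted P = 0.0915). With all samples the log2 fold changes ran from -0.10 to 0.04. The 95% intervals reached no lower than -0.23 (day 2) and no higher than 0.17 (day 0). The day 2 samples came close to separating, with 198.0, 191.3 and 185.5 CPM in vehicle and 179.0, 172.2, 186.0 and 179.8 CPM with C70, where 1 C70 sample exceeded the lowest vehicle sample. The day 2 value of Kdm5c was -0.10 (adjusted P = 0.221), and -0.11 (adjusted P = 0.0396, under the fold threshold) with the length trend removed.

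Kdm1a differed in a like small way. At day 2 it was 58.88, 56.65 and 59.45 CPM in vehicle and 64.52, 64.12, 62.91 and 69.00 CPM with C70. All C70 samples were above all vehicle samples, with a log2 fold change of 0.16 ± 0.0463 (SE, adjusted P = 0.00445) that did not reach the fold threshold. On the other days the log2 fold change was 0.05 to 0.06 and did not pass the test.

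Over differentiation the demethylase genes diverged. In vehicle cells Kdm5b was 196.1, 195.0 and 208.0 CPM at day 0 and 88.28, 98.0, 95.2 and 100.3 CPM at day 7. The ranges were far apart, and the log2 change was -1.06 ± 0.0530 (SE, adjusted P = 1.35e-18). The fall was spread over the first days, at -0.54 from day 0 to day 1 (adjusted P = 3.13e-10) and -0.36 from day 1 to day 2 (adjusted P = 1.80e-06), the second of which was just under the fold threshold at -0.32 (adjusted P = 1.32e-05) with the length trend removed. From day 2 to day 7 Kdm5b differed by -0.16 (adjusted P = 0.00922), under the fold threshold. This turned to 0.16 (adjusted P = 0.0115) with the length trend removed, so no direction is given for that interval. Kdm1a went from 90.35, 94.73 and 92.85 CPM at day 0 to 46.21, 40.97, 42.33 and 47.09 CPM at day 7, with no overlap and a log2 change of -1.07 ± 0.0463 (SE, adjusted P = 3.06e-20). Its change was -0.25 by day 1 (adjusted P = 2.04e-05, under the fold threshold), then -0.41 to day 2 and a further -0.40 to day 7 (adjusted P = 8.99e-09 and 5.67e-09). Without day 7 vehicle replicate 1 the day 7 to day 0 values were -1.03 for Kdm5b and -1.09 for Kdm1a. With the length trend removed Kdm5b kept its direction at a smaller -0.60 and Kdm1a stayed at -1.05. In the same vehicle samples the proliferation marker Mki67 averaged 135, 164, 113 and 2.18 CPM over the 4 days, and the summed level of the 4 proliferation markers fixed (Mki67, Top2a, Ccnb1 and Cdk1) ranged from 10.3 to 503 CPM over all samples. Their part in these changes was not tested.

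Kdm5a and Kdm5c moved less. Kdm5a was 186.3 to 203.3 CPM at day 0 in vehicle and 115.2, 184.8, 176.0 and 166.6 CPM at day 7. All day 7 samples were below day 0, with a log2 difference of -0.29 (adjusted P = 0.00404) that missed the fold threshold, and of -0.16 without the low replicate. It passed both thresholds without day 0 vehicle replicate 2 (-0.33) or day 7 vehicle replicate 2 (-0.37) or 3 (-0.34), and it turned to 0.10 (adjusted P = 0.0311) with the length trend removed, so no direction is given for Kdm5a. Kdm5c in vehicle was 167.3 to 173.3 CPM at day 0 and 130.5, 172.8, 175.1 and 170.9 CPM at day 7, overlapping, at a log2 difference of -0.06 (95% interval -0.20 to 0.07). From day 2 to day 7 Kdm5c differed by -0.24 (adjusted P = 0.00154), under the fold threshold, and by -0.13 both without day 7 vehicle replicate 1 (adjusted P = 0.00939) and with the length trend removed (adjusted P = 0.0124).

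The make-up of the KDM5 transcripts was compared as the share of each gene in their summed CPM per kb of exon, which the scaling between samples cannot move but a trend on exon length can. In vehicle cells Kdm5c held 47.5%, 48.8% and 47.5% at day 0 and 57.7%, 56.2%, 57.5% and 57.4% at day 7. Kdm5b held 23.9%, 24.2% and 24.5% at day 0 and 16.8%, 13.7%, 13.4% and 14.5% at day 7. The share of Kdm5c thus differed by 9.28 points and that of Kdm5b by -9.61 points at day 7 from day 0, and for each gene the days did not overlap. Without day 7 vehicle replicate 1 these differences were 9.12 and -10.3 points, and with the length trend removed they were smaller, at 4.01 and -7.17 points, the days still not overlapping. The mean share of Kdm5a was 27.9% at day 0 and 28.2% at day 7, a difference of 0.326 points that was 1.21 points without that replicate and 3.16 points with the length trend removed. With 3 samples against 4 the exact permutation test, two-sided, cannot give less than P = 0.0571, which both Kdm5b and Kdm5c reached (adjusted P = 0.107 over 15 comparisons). The summed level per kb was 49.8 ± 1.33 at day 0 (SD, n = 3) and 39.9 ± 5.44 at day 7 (SD, n = 4).

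With C70 these shares differed by a few points. At day 2 Kdm5c held 59.3%, 58.5% and 58.6% in vehicle and 54.1%, 55.8%, 57.2% and 54.7% with C70, a difference of -3.38 points with no overlap. Kdm5a held 26.6% to 27.5% in vehicle and 28.6% to 31.3% with C70, also without overlap, 2.53 points higher. The Kdm5b share was 0.858 points higher, at 13.9% to 14.1% in vehicle and 14.2% to 15.4% with C70. At day 1 the difference was -2.64 points for Kdm5c and 1.41 points for Kdm5b, and the groups were apart for both genes. At day 0 the Kdm5b share differed in the other direction, at 23.9%, 24.2% and 24.5% in vehicle and 22.6%, 22.8%, 22.8% and 23.4% with C70, a difference of -1.29 points with no overlap. These differences had the smallest P the exact permutation test can give for 3 against 4, 0.0571, and an adjusted P of 0.107. At day 7 the Kdm5c share was 57.2% in vehicle and 56.8% with C70 (exact permutation P = 0.571, smallest possible 0.0286). With the length trend removed the day 2 difference of Kdm5c was -2.79 points, and that at day 7 turned from -0.385 to 0.745 points. In that fit the Kdm5b shares of the groups overlapped at day 1, where the lowest C70 sample, at 17.8%, was under the highest vehicle sample, and at day 2 (14.1% under 14.3%), and those of Kdm5c at day 1 met at 54.0%. The groups stayed apart for Kdm5b at day 0 and for Kdm5a and Kdm5c at day 2.

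**Figure D3:**
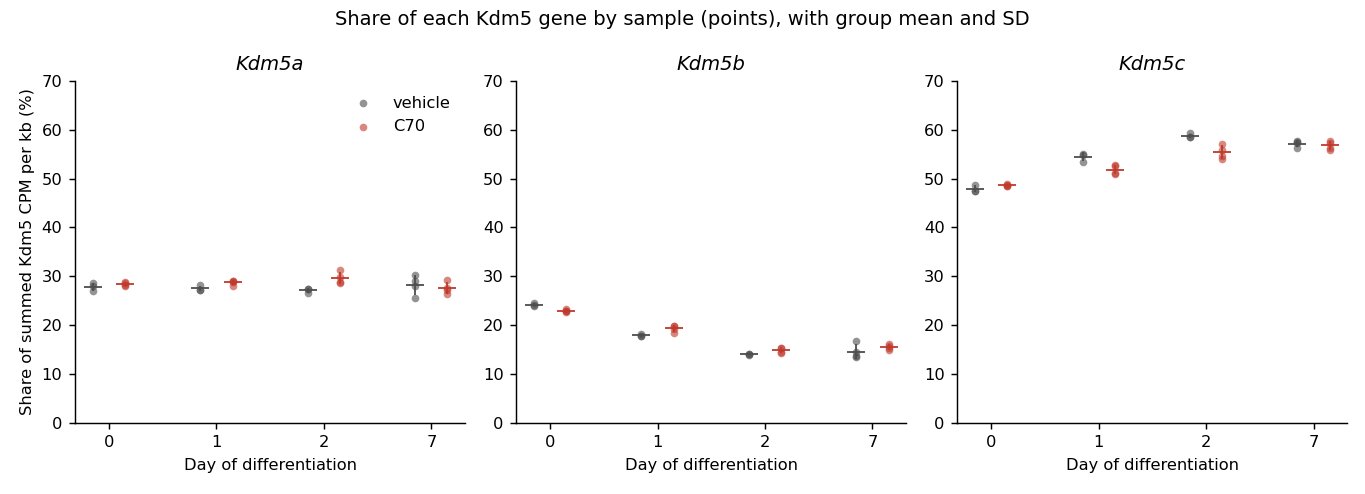
Share of each KDM5 gene in the summed CPM per kb of Kdm5a, Kdm5b and Kdm5c, in percent, for every sample by day, with group mean and SD. The Kdm5b share goes from a mean of 24.2% at day 0 to 14.6% at day 7 in vehicle (grey) and from 22.9% to 15.6% with C70 (red).

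Among the methyltransferases, Setd1b fell with C70 on 3 of the 4 days. SETD1B is the catalytic subunit of a complex that trimethylates H3K4 at promoters. At day 0, when C70 was removed, Setd1b was 98.89, 99.97 and 103.8 CPM in vehicle and 75.19, 85.32, 76.69 and 77.57 CPM with C70. The groups did not overlap, and the log2 fold change was -0.36 ± 0.107 (SE, adjusted P = 0.0172). At day 1 it was 91.81, 87.82 and 85.27 CPM against 70.12, 71.22, 65.82 and 69.30 CPM (log2 fold change -0.35, adjusted P = 0.0103). At day 2 it was 79.97, 88.16 and 78.79 CPM against 61.64, 63.72, 58.90 and 61.42 CPM (log2 fold change -0.42, adjusted P = 0.00194). On each of these days every C70 sample was lower than every vehicle sample. Without day 0 vehicle replicate 3 the day 0 value of Setd1b was -0.34 with an adjusted P of 0.0641.

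By day 7 Setd1b was 71.29, 120.4, 120.9 and 110.0 CPM in vehicle and 99.76, 93.04, 119.7 and 109.8 CPM with C70. The groups overlapped, with a log2 fold change of -0.00 (95% interval -0.21 to 0.20). The C70 effect on Setd1b was 0.42 higher at day 7 than at day 2 (95% interval 0.12 to 0.72, adjusted P = 0.0313), the only 1 of the 10 genes to pass this test of a difference between days, where 20.9% of all genes passed. Between days 0 and 1, 0 of the 10 passed (13.8% of all genes, 2 of the 10 at an unadjusted P under 0.05), between days 1 and 2 also 0 (13.8%, 0 at an unadjusted P under 0.05), and between days 0 and 7 again 0 (22%, 2 at an unadjusted P under 0.05). The call on Setd1b between days 2 and 7 rests on single samples. Without day 7 vehicle replicate 1 the difference was 0.27 (adjusted P = 0.0102, under the fold threshold) and the day 7 fold change of Setd1b was -0.14 (adjusted P = 0.0392, also under the fold threshold). Leaving out vehicle replicate 2 of day 2 gave 0.37 (adjusted P = 0.0915), C70 replicate 3 of day 2 gave 0.40 (adjusted P = 0.0549), and C70 replicates 3 and 4 of day 7 gave 0.36 and 0.40 (adjusted P = 0.0756 and 0.0554). A fit on these 4 groups alone gave 0.43 (adjusted P = 0.114). With the length trend removed it was 0.39 (adjusted P = 0.000406). Between days 0 and 7 the effect on Setd1b differed by 0.36 (adjusted P = 0.0632), and DESeq2 put this past the thresholds (adjusted P = 0.0460). So did leaving out C70 replicate 2 of day 0 (0.40, adjusted P = 0.0483), vehicle replicate 2 or 3 of day 7 (0.42 and 0.43, adjusted P = 0.0286 and 0.0264) or C70 replicate 2 of day 7 (0.42, adjusted P = 0.0306). The same difference was 0.215 without day 7 vehicle replicate 1 (adjusted P = 0.0348). With the length trend removed it was 0.283 (adjusted P = 0.00669), and both values are under the fold threshold. Without day 7 vehicle replicate 1, Kmt2c and not Setd1b passed in the contrasts of day 7 with days 0 and 2, its C70 fold changes then being 0.35 at day 2 and -0.12 at day 7.

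Setd1a, the paralog of Setd1b, changed with C70 at day 2. Its level was 41.92, 46.21 and 37.91 CPM in vehicle and 30.95, 34.36, 35.44 and 32.63 CPM with C70. All C70 samples were lower, with a log2 fold change of -0.34 ± 0.0894 (SE, adjusted P = 0.00208). This is just past the fold threshold, and Setd1a fell short of it at -0.32 without day 1 C70 replicate 1, -0.26 without day 2 vehicle replicate 2 and -0.30 without day 2 C70 replicate 1. The log2 fold change of Setd1a at day 1 was -0.19 (adjusted P = 0.102, and 0.0340 without day 7 vehicle replicate 1), and those at days 0 and 7 were 0.08 and -0.09 (-0.19, adjusted P = 0.0347, without day 7 vehicle replicate 1, under the fold threshold). The exons of Setd1a share 3523 bases with Gm49388 on the same strand, so reads of the pair could have been divided by the counting program, which is not given in the sources used here.

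Kmt2a, which encodes MLL1, was the gene of the 10 that rose with C70. At day 2 it was 104.8, 108.4 and 91.83 CPM in vehicle and 139.0, 125.4, 142.2 and 139.6 CPM with C70. The groups were apart, at a log2 fold change of 0.42 ± 0.131 (SE, adjusted P = 0.00927), which was 0.36 (adjusted P = 0.0559) without day 2 vehicle replicate 3. At day 1 all C70 samples were likewise higher (129.3 to 144.7 CPM in vehicle, 153.1 to 170.2 CPM with C70), with a log2 fold change of 0.27 that did not pass (adjusted P = 0.108, and 0.0230 at 0.27, under the fold threshold, without day 7 vehicle replicate 1). At day 7 Kmt2a was 46.61, 86.22, 84.03 and 69.95 CPM in vehicle and 88.82, 75.83, 110.4 and 105.9 CPM with C70. These groups overlapped, and the call at day 7 (0.41, adjusted P = 0.0111) was lost without day 7 vehicle replicate 1 (0.26, adjusted P = 0.0480, under the fold threshold) or day 7 C70 replicate 3 (0.33, adjusted P = 0.0526). It was also lost in a fit of the day 7 samples alone (0.40, adjusted P = 0.117) and with the length trend removed (0.31, under the fold threshold).

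Kmt2c, which encodes the enhancer methyltransferase MLL3, was near the threshold at day 2. It was 167.9, 195.6 and 158.6 CPM in vehicle and 216.8, 203.4, 231.9 and 228.5 CPM with C70. All C70 samples were higher, at a log2 fold change of 0.34 ± 0.144 (SE) and an adjusted P of 0.0562. Kmt2c passed both thresholds with DESeq2 (0.33, adjusted P = 0.0458), in a fit of the day 2 samples alone (0.34, adjusted P = 0.00506) and without day 7 vehicle replicate 1 (0.35, adjusted P = 0.00184). It also passed when any one of C70 replicate 1 of day 1 (adjusted P = 0.0497), vehicle replicate 2 of day 2 (0.0356), vehicle replicate 2 of day 7 (0.0393) or C70 replicate 2 of day 7 (0.0443) was left out. It did not pass with the length trend removed (0.27, adjusted P = 0.000828, under the fold threshold), and its lowest value on leaving out 1 sample was 0.28 (adjusted P = 0.183, without vehicle replicate 3 of day 2). At days 0 and 1 the C70 samples of Kmt2c were again all above vehicle (145.9 to 158.4 against 125.3 to 142.3 CPM, and 231.9 to 252.8 against 201.1 to 219.8 CPM), with log2 fold changes of 0.22 and 0.19 and adjusted P of 0.347 and 0.302. At day 7 its value was 0.06.

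Kmt2b and Kmt2d, which encode MLL2 and MLL4, did not pass between C70 and vehicle on any day. Kmt2b differed most at day 0, by 0.16 (73.6 CPM in vehicle and 82.1 CPM with C70, adjusted P = 0.114, and 0.0162 without day 7 vehicle replicate 1). The log2 fold changes of Kmt2d stayed between 0.00 and 0.14, and that at day 7 was -0.02 without day 7 vehicle replicate 1. The intervals for Kmt2d were wide, at -0.29 to 0.30 on day 0 and -0.14 to 0.42 on day 7, the second of which holds the fold threshold. In the same samples the adipocyte marker Adipoq at day 2 averaged 493 CPM in vehicle and 265 CPM with C70, and Mki67 113 and 66.5 CPM. All 8 preadipocyte markers averaged higher with C70 at days 2 and 7. At day 2 Dlk1 was 162 CPM in vehicle and 317 CPM with C70, Col1a1 893 and 1507 CPM, and Thy1 11.5 and 74.3 CPM. At day 7 Pdgfra was 176 and 361 CPM, and Col1a1 756 and 1875 CPM. The adipocyte markers Adipoq (1340 CPM in vehicle and 1704 CPM with C70), Cd36 (2383 and 2991 CPM), Lpl, Cidec and Plin1 averaged higher with C70 at day 7. Fabp4 (5898 and 5711 CPM), Pparg and Cebpa averaged lower. Whether these markers have a part in the differences of Setd1a, Setd1b and Kmt2a at day 2 and of Kmt2a at day 7 was not tested.

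**Figure D4:**
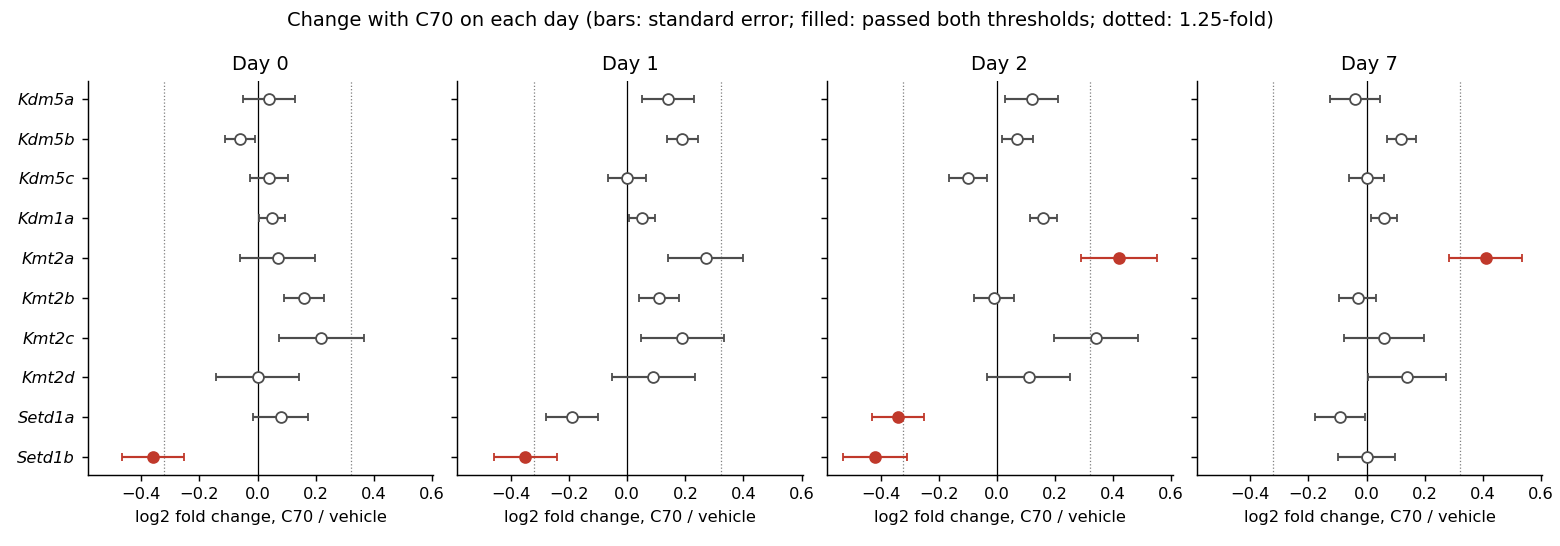
Log2 fold change of each gene, C70 over vehicle, at each day, with bars of 1 standard error. Filled red points passed both thresholds and dotted lines mark the fold threshold. Setd1b is filled at days 0, 1 and 2, Setd1a at day 2, and Kmt2a at days 2 and 7.

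Over differentiation in vehicle cells the methyltransferases split. Kmt2a had the largest fall of the 10, from 157.3, 159.2 and 173.7 CPM at day 0 to 46.61, 86.22, 84.03 and 69.95 CPM at day 7. The ranges were apart, with a log2 change of -1.19 ± 0.132 (SE, adjusted P = 5.66e-09). It was -1.03 without day 7 vehicle replicate 1 and -0.75 with the length trend removed, both still past the thresholds, and in each of those fits Kdm1a fell by as much or more. By interval, Kmt2a changed by -0.27 to day 1 (adjusted P = 0.0876), -0.42 from day 1 to day 2 (adjusted P = 0.0124) and -0.50 from day 2 to day 7 (adjusted P = 0.00161). The second of these was -0.35 (adjusted P = 0.0611) without day 2 vehicle replicate 3, and the last was -0.33 without day 7 vehicle replicate 1 and -0.21 with the length trend removed, which is under the fold threshold.

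Kmt2b and Setd1a rose. In vehicle cells Kmt2b was 74.04, 75.97 and 70.75 CPM at day 0 and 93.13, 91.81 and 93.75 CPM at day 1, and by day 7 77.75, 104.3, 104.0 and 95.05 CPM. Days 1 and 7 both lay above day 0, at log2 changes of 0.34 (adjusted P = 0.000159) and 0.37 (adjusted P = 1.17e-05). The change of Kmt2b to day 1 was under the fold threshold at 0.31 without day 0 vehicle replicate 3, and that to day 7 was so at 0.29 after quantile normalization, while it was 0.46 without day 7 vehicle replicate 1 and 0.64 with the length trend removed. Setd1a was 25.22, 25.51 and 25.49 CPM at day 0, 36.37, 35.17 and 33.73 CPM at day 1 and 41.92, 46.21 and 37.91 CPM at day 2. It stood at its highest at day 2, after a log2 change of 0.47 to day 1 (adjusted P = 9.89e-05) and 0.26 to day 2 (adjusted P = 0.0168, past the fold threshold only without day 2 vehicle replicate 3, at 0.33). At day 7 Setd1a was 25.90, 34.21, 34.89 and 38.21 CPM, 0.39 above day 0 with no overlap (adjusted P = 0.000305), while the log2 change from day 2 was -0.34 with overlap (adjusted P = 0.00127). The rise over day 0 was 0.32 without day 7 vehicle replicate 4, under the fold threshold. The fall from day 2 missed the fold threshold when C70 replicate 1 of day 1 (-0.32), vehicle replicate 2 of day 2 (-0.26), vehicle replicate 1 of day 7 (-0.22) or C70 replicate 2 of day 7 (-0.32) was left out, and with the length trend removed (-0.24).

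Kmt2c peaked at day 1. It was 132.8, 125.3 and 142.3 CPM at day 0 and 219.8, 201.1 and 209.3 CPM at day 1 in vehicle, with no overlap and a log2 change of 0.65 ± 0.155 (SE, adjusted P = 0.000625). At day 2 it was 158.6 to 195.6 CPM, below day 1 in every sample (log2 difference -0.27, adjusted P = 0.133). At day 7 it was 90.78, 190.0, 175.9 and 151.7 CPM, 0.19 above day 0 with all samples (adjusted P = 0.230). The low value is that of day 7 vehicle replicate 1. Without it Kmt2c was 0.37 above day 0 (adjusted P = 0.00109), past both thresholds, and it was 0.67 above with the length trend removed.

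Kmt2d did not pass from day 0 to day 1 or from day 1 to day 2, and was lower at day 7. It was 280.7 to 317.1 CPM at day 0, 293.8 to 342.4 CPM at day 1 and 259.6 to 322.4 CPM at day 2 in vehicle, and 123.6, 242.5, 227.5 and 196.2 CPM at day 7. The log2 change was 0.09 to day 1 (95% interval -0.22 to 0.41) and -0.10 from day 1 to day 2 (95% interval -0.42 to 0.22). Both intervals hold the fold threshold. With the length trend removed the change to day 1 was 0.195 (adjusted P = 0.0142, under the fold threshold). Day 7 did not overlap with the earlier days, at -0.57 ± 0.144 (SE, adjusted P = 0.000797) against day 0 and -0.56 against day 2. These values of Kmt2d were -0.40 and -0.37 without day 7 vehicle replicate 1, still past both thresholds. With the length trend removed they were -0.09 (adjusted P = 0.192) and -0.24 (under the fold threshold), so the fall of Kmt2d, at 19.9 kb of exon, depends on that trend being left in. Setd1b went from 78.79 to 88.16 CPM at day 2 to 71.29, 120.4, 120.9 and 110.0 CPM at day 7, overlapping only through the low replicate. The log2 change was 0.36 (adjusted P = 0.00405), 0.53 without that replicate and 0.59 (adjusted P = 1.20e-10) with the length trend removed. It lost the call without day 7 vehicle replicate 2 or 3 (0.29 each), after quantile normalization (0.31), with a trend on GC content removed (0.26, adjusted P = 0.0737) and in a fit of these days alone (adjusted P = 0.0905). Against day 0, Setd1b differed by 0.07 (95% interval -0.15 to 0.29), and by 0.42, past both thresholds, with the length trend removed.

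**Figure D5:**
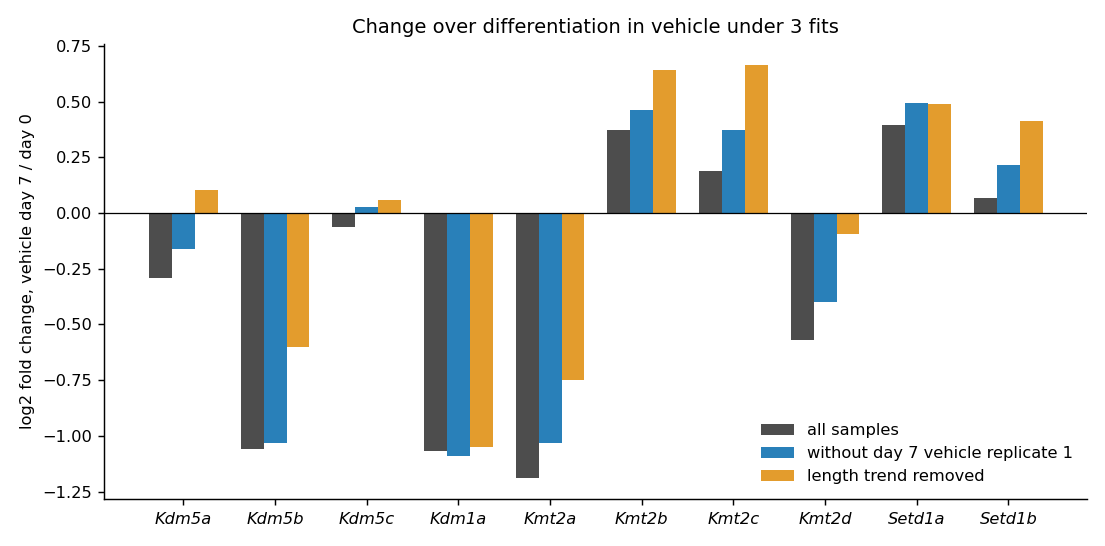
Log2 fold change of each gene between day 7 and day 0 in vehicle cells, as bars, in 3 fits. Grey bars use all samples, blue bars leave out day 7 vehicle replicate 1 and orange bars have the length trend removed. Kdm1a is between -1.05 and -1.09 in each, Kdm5b and Kmt2a are below -0.5 in each, and Kmt2d goes from -0.57 to -0.09.

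Kdm5b, Kdm1a and Kmt2a, the demethylase and methyltransferase genes that fell by more than 1 on the log2 scale, are shown with the 300 bases around their RefSeq start sites (250 before and 50 after, assembly GRCm38.p6, each on the strand of its gene, 5′ to 3′). CpG dinucleotides are in capitals, since the CXXC domains of MLL1, of MLL2 and of the SETD1 subunit CXXC1 bind unmethylated CpG, and most promoters with H3K4 trimethylation are rich in CpG. The windows are chr1:134559928-134560227 on the plus strand for Kdm5b, chr4:136602674-136602973 on the minus strand for Kdm1a and chr9:44881240-44881539 on the minus strand for Kmt2a.
Kdm5b: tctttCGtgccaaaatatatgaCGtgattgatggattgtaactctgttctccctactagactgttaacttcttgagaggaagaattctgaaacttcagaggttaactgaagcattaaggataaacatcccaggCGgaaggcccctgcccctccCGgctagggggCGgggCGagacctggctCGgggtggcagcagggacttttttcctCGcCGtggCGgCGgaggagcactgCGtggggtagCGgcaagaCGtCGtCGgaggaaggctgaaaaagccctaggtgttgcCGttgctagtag
Kdm1a: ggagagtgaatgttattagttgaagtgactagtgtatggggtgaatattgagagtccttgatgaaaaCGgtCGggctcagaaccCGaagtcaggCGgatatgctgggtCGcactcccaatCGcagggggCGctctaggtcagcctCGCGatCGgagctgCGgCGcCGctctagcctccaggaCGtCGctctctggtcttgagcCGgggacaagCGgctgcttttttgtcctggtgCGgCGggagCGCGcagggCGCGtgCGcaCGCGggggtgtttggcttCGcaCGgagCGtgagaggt
Kmt2a: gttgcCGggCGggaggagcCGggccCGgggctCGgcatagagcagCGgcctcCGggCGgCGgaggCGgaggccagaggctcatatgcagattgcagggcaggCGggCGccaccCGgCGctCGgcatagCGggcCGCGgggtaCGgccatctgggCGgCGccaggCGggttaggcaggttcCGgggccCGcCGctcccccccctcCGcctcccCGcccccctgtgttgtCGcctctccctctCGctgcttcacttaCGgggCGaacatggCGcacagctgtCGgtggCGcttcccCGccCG
The windows held 17, 29 and 36 CpG, against a median of 7 over 32851 promoters of this length, and 68.6%, 87.1% and 93.8% of those promoters held fewer. The letters GGGCGG, to which Sp1 binds, were present in the windows of Kdm5b (1) and Kmt2a (5) and are in 35.7% of all promoters. CCAAT was found once, in Kdm1a, and is in 37.4% of all promoters. TTTCCCGC, TTTGGCGC and TTTCGCGC, letters bound by E2F factors, were in none of the 3 windows and in 1.84% of all. Both strands were searched, and none of these motifs contains another. The other windows held 13 CpG (Kdm5c), 27 (Kmt2d), 35 (Setd1a) and 56 (Kmt2c). The table gave windows for 7 of the 10 genes.

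Levels per kb divide by all annotated exon bases of a gene and not by those of the transcripts expressed, so the order of genes depends on this divisor. In CPM, Kdm5c (170) was below Kmt2d (293), Kdm5b (200) and Kdm5a (197) in vehicle at day 0. In levels per kb of exon, Kdm5c was highest in all 8 groups, at 22.8 CPM per kb or more. At day 0 in vehicle it was followed by Kdm1a (17.9), Kmt2d (14.7), Kdm5a (13.9) and Kdm5b (12.1), of which only Kmt2d and Kdm5a overlapped between neighbours. Then came Kmt2a (9.80), Setd1b (8.36), Kmt2b (7.67), Kmt2c (6.58) and Setd1a (3.74), none overlapping with its neighbour. The place of Setd1a in this order depends on how reads in the 3523 of its 6795 exon bases shared with Gm49388 were counted. At day 7 Kdm5c (22.8) still stood clear, followed by Kdm5a (11.3), while each of the 8 genes after Kdm5a overlapped with its neighbours in the order. Part of this overlap comes from day 7 vehicle replicate 1. Over the other 3 replicates Kdm1a (7.91 to 9.09), Kdm5b (5.75 to 6.06) and Setd1a (5.03 to 5.62) did not overlap, and Kmt2d (9.84 to 12.2) came before Kmt2b (9.91 to 10.9). With all 4 replicates Kmt2a was the lowest at 4.30 CPM per kb. With C70 at day 7 the lowest was Setd1a, at 4.59 CPM per kb, and Kmt2a was at 5.71.

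The genes also varied together to different degrees over the 29 samples, which share groups and depth, so Pearson's r of log2 CPM is a description. The samples include day 7 vehicle replicate 1, in which each of the 10 genes except Kdm1a was low. The part of that sample and of exon length in r, also for the nearest genes, was not tested. Kdm5b and Kdm1a had r = 0.93, Kmt2a and Kdm5a 0.88, and Kmt2a and Kdm1a 0.87. Kmt2d and Kmt2a had r = 0.88, and Setd1a and Kmt2b 0.74. Setd1b had its highest r with any other of the 10 at 0.06, with Setd1a. Kdm5b and Kdm5c, which share their substrate, had r = 0.21. Among all genes above the median level, the closest to Kdm5b were Ocrl (0.983), Kank2 (0.981) and Palld (0.981). The closest to Kdm1a were Phlpp1 (0.992), Arhgap17 (0.990) and Nap1l1 (0.988), those to Kdm5a were Arhgef12 (0.961), Mib1 (0.933) and Ubr4 (0.930), and those to Kdm5c included Srrm2 (0.939) and Lcor (0.915). For the methyltransferases the closest were Bptf to Kmt2a (0.982), Huwe1 to Kmt2d (0.975), Dennd4c to Kmt2c (0.942), Cbl to Setd1a (0.907), Son to Kmt2b (0.905) and Tbc1d8b to Setd1b (0.858).

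The partners of these enzymes were taken from named lists. The 4 core subunits shared by all the methyltransferases (Wdr5, Rbbp5, Ash2l and Dpy30) had 0 changed with C70 on any day. Dpy30 and Wdr5 came closest, with log2 differences of -0.27 (adjusted P = 0.0254) and -0.32 (adjusted P = 4.86e-05) at day 1, both under the fold threshold (at an unadjusted P under 0.05 there were 2, 2, 3 and 1 of the 4 on the 4 days, and DESeq2 put Wdr5 past both thresholds at day 1). The median log2 fold change of the core subunits was -0.08, -0.14, -0.06 and -0.09 at days 0, 1, 2 and 7. In vehicle, Ash2l went from 69.6 CPM at day 0 to 39.9 CPM at day 7 (log2 change -0.80, adjusted P = 1.77e-15) and Dpy30 from 14.9 to 18.9 CPM (0.34, adjusted P = 0.00158). Ash2l was called in both alternatives for day 7, and Dpy30 in neither, at 0.23 without day 7 vehicle replicate 1 and 0.03 with the length trend removed.

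Of 13 subunits particular to SETD1 or MLL complexes, 12 had values. With C70, 0 rose and 3 fell at day 1, 0 rose and 3 fell at day 2, and none passed at days 0 and 7 (4 and 5 at an unadjusted P under 0.05, and none with DESeq2). Psip1, which encodes the chromatin tether LEDGF of the MLL1 complex, fell on both days, from 77.2 to 59.8 CPM at day 1 (log2 change -0.37, adjusted P = 6.95e-07) and from 77.8 to 61.7 CPM at day 2 (-0.33, adjusted P = 2.05e-06). At day 1 Paxip1, a subunit of the MLL3 and MLL4 complexes (-0.36), and Tasp1, the protease that cleaves MLL1 and MLL2 (-0.45), were the others. At day 2 they were Men1, which encodes menin, the partner of MLL1 and MLL2 (93.7 CPM in vehicle, 71.7 CPM with C70, -0.39, adjusted P = 1.32e-08), and Hcfc2 (-0.41). In vehicle from day 0 to day 7, 3 of the 12 rose (Men1 0.55, Tasp1 0.47 and Cxxc1 0.42) and 4 fell (Psip1 -0.70, Wdr82 -0.67, Hcfc1 -0.51 and Kdm6a -0.33). The counts without day 7 vehicle replicate 1 were 3 up and 3 down (Kdm6a -0.22, not called), and with the length trend removed 5 up and 2 down (Kdm6a -0.12 and Hcfc1 -0.31, not called). Men1 rose over differentiation and Kmt2a fell in all of these fits. Leaving out that replicate, which is in neither day 2 group, also put Psip1 at day 2 just under the fold threshold (-0.32).

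Around LSD1, 2 of 12 listed genes rose with C70 at day 0 and 2 at day 2, while 0 rose at day 1 (2 at an unadjusted P under 0.05, and none with DESeq2) and 1 at day 7. None fell. Rcor2, a CoREST scaffold that holds LSD1 on nucleosomes, was 24.4 CPM in vehicle and 32.2 CPM with C70 at day 0 (log2 change 0.40, adjusted P = 0.000139), and 27.7 and 39.4 CPM at day 2 (0.51, adjusted P = 5.06e-07). Gse1, another LSD1 complex gene, rose on the same days (0.36 and 0.40, adjusted P = 0.000771 and 6.74e-05). Phf21a, whose product BHC80 binds unmethylated H3K4, rose at day 7 from 37.9 to 49.0 CPM (0.37, adjusted P = 4.64e-07). In vehicle from day 0 to day 7, 0 rose and 5 fell, among them Phf21a (-1.29), Hdac1 (-0.63), Rcor1 (-0.58) and Rcor3 (-0.42), beside Kdm1a itself (-1.07). Of this list 4 fell without day 7 vehicle replicate 1 and with the length trend removed 3, with Rcor3 at -0.32 and -0.03 and not called in either. At day 7 with C70, Phf21a was 0.35 and called without that replicate, and 0.30 and not called with the length trend removed, while Rcor2 was called in both (0.38 and 0.34).

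The 9 listed partners of KDM5 proteins, from the SIN3 and related complexes, had 0 changed with C70 on any of the days, by edgeR or DESeq2 (1, 3, 3 and 4 at an unadjusted P under 0.05). In vehicle from day 0 to day 7, 1 of them rose (Gatad1, a reader found with KDM5A, 1.11) and 3 fell (Pbrm1 -0.80, Emsy -0.48 and Morf4l2 -0.34). Of 14 readers of H3K4 methylation with values, Ing5 fell with C70 at day 1 (31.7 to 22.9 CPM, -0.46, adjusted P = 1.59e-06) and none passed on the other days. In vehicle from day 0 to day 7, 3 readers rose, among them Sgf29 of the SAGA complex (1.87), and 3 fell, among them Bptf of the NURF remodeller (-0.82). Of 7 other SET domain genes with values, Prdm9, at a low level, fell with C70 at day 2 (7.49 to 3.92 CPM, -0.94, adjusted P = 1.90e-06). At day 0 it was -0.41 (adjusted P = 0.0573), and it was called there by DESeq2 and without day 7 vehicle replicate 1 (adjusted P = 0.0357). In the same list Setd7 had the largest fall over differentiation (137 CPM at day 0, 53.4 CPM at day 7, -1.35). Emsy (-0.01), Phf20 (-0.13), Ash1l (-0.03) and Setmar (0.26) were no longer called between days 0 and 7 once the length trend was removed, and Bptf was -0.42 and Pbrm1 -0.57. Ash1l was also not called without day 7 vehicle replicate 1 (-0.26), and the reader Chd1 was called at day 7 with C70 (-0.32). For these lists the share of all genes given above for each comparison is the background.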

How the data were processed

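RNA-seq of 29 samples of 3T3-L1 cells was analysed. The authors aligned reads to GRCm38 (STAR 2.7.2a; Ensembl release 97), and edgeR 3.26.8 is named in the submitters' processing notes. The counting program, its use of strand and the filter on genes are not given in the sources used here, although the libraries were strand-specific. The deposited values are whole-number counts per gene for 11959 genes. Counts were scaled by TMM (factors 0.898 to 1.08) and fitted here with edgeR 4.0.16 in R 4.3.3, by the quasi-likelihood test on group means of all samples (common coefficient of variation 0.0594). P values were two-sided and adjusted by Benjamini-Hochberg within each comparison. CPM per kb used the union of exons in GENCODE M21, and promoters came from RefSeq. The genes and lists were chosen with earlier results of these data known. All 10 genes were reported. Of the list genes, those named had passed at the days with most calls or had the largest changes. The nearest genes were the 3 (demethylases) or 1 (methyltransferases) of highest r among genes above the median level. A few genes that these rules chose are not reported here. In simulated data 99.0% of 200 genes changed 2-fold at day 2 were recovered, with 4 false calls. The changes of the 10 genes called with C70 were smaller than 2-fold, and no simulated sample had a length trend. The recovery of changes of that smaller size was therefore not tested. Alternatives were DESeq2 1.42.0, RLE factors, quantile normalization with limma 3.58.1, a filter on low genes, other thresholds, a replicate block, separate fits and leaving out each sample. Removal of trends on exon length or GC content was added after seeing the data. Plots were drawn with matplotlib 3.10.9.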

Additional observations from a re-analysis of the deposited data

Results flagged for a closer look

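Kmt2c was 145.9 CPM in day 0 C70 replicate 1, below the other replicates of its group by 0.952 of the range of the group, which is over the critical value of Dixon's test for 4 samples. Kdm5c was 130.5 CPM in day 7 vehicle replicate 1, lower than the other replicates by 0.906 of the range. These were 2 of 65 sets of 4 samples tested, which were the levels of the 10 genes and the shares of the 3 KDM5 genes in each group of 4, where 3.25 would be flagged by chance at about 1 in 20.

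The interaction term of edgeR's quasi-likelihood model had an adjusted P under 0.05 for Kdm5b and Setd1b. For Kdm5b it was under the fold threshold, so it was not counted as changed. The C70 effect on Kdm5b was 0.25 higher on the log2 scale at day 1 than at day 0 (adjusted P = 0.0160), and every C70 sample was below every vehicle sample at day 0 and above at day 1. It was 0.19 (adjusted P = 0.0638) with the length trend removed. That on Setd1b was 0.42 higher at day 7 than at day 2 (adjusted P = 0.0313), and it was lost on leaving out any of 5 single samples and in a fit of those groups alone.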

How the results depend on the processing

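At a fold change over 1.5 the number of the 10 genes called was 0 for C70 on every day, 1 for vehicle from day 0 to day 1, 0 from day 1 to day 2, 0 from day 2 to day 7 and 3 from day 0 to day 7, and 0 for the C70 effect between days 2 and 7. By adjusted P alone 2 were called for C70 at day 1 and 1 for the effect between days 0 and 1. Separate fits called 0 for C70 at day 7 and 0 for the effect between days 2 and 7. With the length trend removed 0 were called for C70 at day 7 and 2 for vehicle from day 2 to day 7. Between days 0 and 7 the C70 effect had 1 called with DESeq2, with quantile normalization and without the 25% of genes of lowest level.

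The values below changed sign, and in vehicle some had been as low as -0.29. Kmt2d with C70 at day 0 became -0.0102 (replicate block), -0.00288 (separate fit), -0.0388 (quantile), -0.0120 (length) and -0.0208 (GC). Kdm5c at day 1 became -0.00823 (replicate block), -0.0456 (quantile) and -0.0214 (length). At day 7 Kdm5c became 0.00174 (RLE), 0.0212 (low genes left out), 0.00176 (DESeq2) and 0.00648 (quantile), Setd1b became 0.00197 (RLE), 0.0219 (low genes left out), 0.00476 (replicate block), 0.00304 (DESeq2) and 0.0168 (quantile), and Kmt2c became -0.0365 (length). In vehicle with the length trend removed, Kdm5a became 0.00810 from day 1 to day 2, Kdm5a 0.130, Kdm5b 0.160, Kmt2b 0.146 and Kmt2c 0.126 from day 2 to day 7, and Kdm5a 0.104 and Kdm5c 0.0573 from day 0 to day 7, where Setd1b became -0.0533 after quantile normalization. The cause was not tested.

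Leaving out each sample in turn gave 0 to 1 genes called for C70 at day 0, 0 to 1 at day 7, and 0 to 1 for the C70 effect between days 2 and 7 and between days 0 and 7. It gave 2 to 4 for C70 at day 2. In vehicle it gave 3 to 4 from day 0 to day 1, 4 to 5 from day 2 to day 7 and 5 to 7 from day 0 to day 7. The values that changed sign ranged from -0.0379 to 0.0650 for Kmt2d at day 0, -0.0197 to 0.0223 for Kdm5c at day 1 and -0.0330 to 0.00278 for Kmt2b at day 2. For C70 at day 7 they ranged from -0.160 to 0.0374 (Kdm5a), -0.0881 to 0.0454 (Kdm5c), -0.108 to 0.0222 (Kmt2b), -0.118 to 0.181 (Kmt2c), -0.0241 to 0.252 (Kmt2d) and -0.144 to 0.0695 (Setd1b). In vehicle they ranged from -0.206 to 0.0158 (Kdm5a), -0.0798 to 0.0695 (Kmt2b) and -0.318 to 0.00442 (Kmt2c) from day 2 to day 7, and from -0.103 to 0.0285 (Kdm5c) and -0.00374 to 0.217 (Setd1b) from day 0 to day 7. Of the single-gene values under all settings, 3168 kept direction and side of the threshold, 34 newly passed, 55 no longer passed and 58 changed sign.

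Same-numbered samples of vehicle and C70 deviated together in 2 of 13 pairs at r over 0.1 (r from -0.193 to 0.206). A low r cannot exclude a pairing with small effects, so whether the numbers pair the samples is not known. The main fit treated the samples as unpaired. The depth, at 445 or more counts per gene and sample, puts the limit in the spread between replicates, whose counts differed by 2.66 to 46.8 times the counting variance.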
